A study of Mus musculus with 25 samples.

Results

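Brain gene expression was compared between the middle ages and both ends of a series of male C57BL/6 mice, an inbred strain. Total RNA from brain hemispheres had been sequenced from animals of 2, 9, 15, 24 and 30 months. The comparison used 20 of the 25 libraries, chosen by the age on their labels: 10 libraries of the middle ages (5 of 9 months and 5 of 15 months) against 10 of the ends (5 of 2 months and 5 of 24 months). The 5 libraries of 30 months were left out. All 20 animals share sex, strain and tissue, the labels name no treatment and no altered allele, and each title carries its own animal number. The question was which genes changed up to the middle ages and turned back by 24 months, so the mean of 9 and 15 months was set against the mean of 2 and 24 months (the mid-life contrast, on the log2 scale, positive where the middle is higher).

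Brain expression is often described along a line from young to old, and a gene that rises and falls back drops out of such a description. The circadian clock is a loop in which BMAL1 (gene Arntl) and CLOCK switch on their own repressors, REV-ERBalpha (Nr1d1) among them, and output factors such as DBP. Chaperones fold newly made proteins: those of the endoplasmic reticulum (ER), led by BiP (Hspa5), are raised by the unfolded protein response through XBP1 and ATF6, and those of the cytosol by the heat shock factor HSF1.

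Library totals ran from 17.8 M to 31.3 M counts (M, 1000000), and 17472 genes passed the filter on low counts. Every listed gene of neurons (16), astrocytes (15) and myelin (24) passed. The libraries leaned differently by GC content. The GC gap, the median log2 ratio of the 10% of protein-coding genes richest in GC minus that of the 10% poorest, ran from -0.02 to 0.08 at 2 months and from -0.06 to 0.12 at 9 months. It ran from -0.25 to -0.09 at 15 months and from 0.06 to 0.16 at 24 months, so these ages do not overlap and their GC lean and age cannot be told apart. Alb, the serum albumin of liver, stood at 0 to 127 CPM (counts per 1000000, a level) at 2 months, 0.55 to 23.8 at 9, 7.60 to 89.9 at 15 and 38.9 to 170.1 at 24 months. The choroid plexus gene Ttr (transthyretin) was nearly missing from 1 library, replicate 1 of 9 months, with 17.5 CPM against 366 to 644 elsewhere.

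The mid-life contrast passed an adjusted p of 0.05 in 4016 genes, 23% of those tested. Of these, 2071 were higher in the middle (11.9%) and 1945 lower (11.1%), with 30 and 50 of them at least 1.5-fold apart. The contrast alone does not make a reversal, because a gene that moved once and stayed also gives a difference of means. A gene was therefore called a peak gene only where the contrast, the middle minus 2 months (the early side) and the middle minus 24 months (the late side) all passed and all were above 0, and a trough gene where all were below 0. The early side called 14.7% of genes (7.27% higher and 7.40% lower in the middle) and the late side 31.8% (15.6% and 16.2%). There were 568 peak genes (3.25%) and 452 trough genes (2.59%), together 5.84% of genes. The other contrast genes did not pass on both sides in the direction of the contrast. Those that passed so on 1 side were called steps, 675 on the early side alone and 2116 on the late side alone, and 205 passed on neither. A side that did not pass is not shown to be unchanged, so a step can also be a weaker reversal. In 114 genes (0.652%) the 10 middle libraries did not overlap the 10 end libraries at all, 68 of them higher and 46 lower in the middle, and every one of these was a peak or a trough gene.

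Most reversals were small. The median absolute contrast was 0.15 on the log2 scale in peak genes and 0.19 in trough genes, against 0.08 over all genes tested, values that the choice of the classes itself raises. In all, 13 peak genes and 15 trough genes reached 1.5-fold. The classes also differed in level and in what their transcripts look like. The median level was 101.8 CPM in peak and 30.3 in trough genes, against 15.2 over all genes tested. More counts make a small change easier to call, so level, and transcript length with it, is not separate from the choice of the classes. Peak genes had a median GC content of 45.9% and a median transcript length of 5092 bases. Trough genes had 55.5% and 3094 bases, against 49.7% and 3189 over all genes tested. In the 10% of genes lowest in GC, 5.05% were peak and 0.459% trough genes, and in the highest 10% 1.03% were peak and 6.72% trough genes. The part of the GC lean of libraries in these shares cannot be told apart from age at 15 and 24 months, and with the GC gap as a covariate of the fit 31 peak and 33 trough genes were called, 23 and 29 of them among those above. With GC content and length taken out gene by gene within each library, 523 peak and 314 trough genes were called, 361 and 216 of them among those above. Of the 84 peak and trough genes that the rule for names picked, 7 kept their class with the covariate (Nr1d1, Tnni1, Wfikkn2, Gimap6, Cspg4, Rplp1 and Rpl6), 65 with the GC and length correction and 51 in every fit that left out 1 library.

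**Figure D1:**
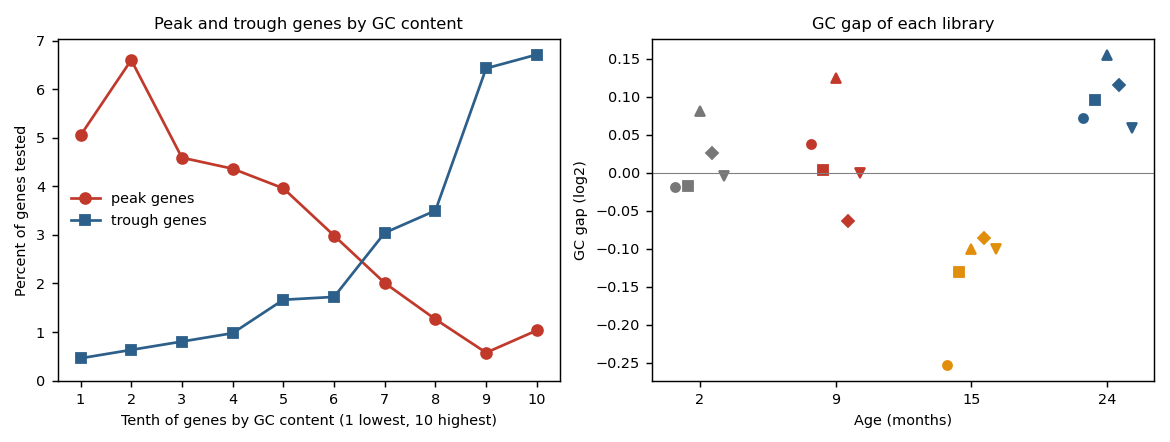
Left, the percent of genes tested that were peak genes (circles) and trough genes (squares) in each 10% of genes ordered by GC content. Right, the GC gap (log2) of each of the 20 libraries by age in months, with a marker shape for each replicate; the 15 month libraries lie at -0.25 to -0.09 and the 24 month libraries at 0.06 to 0.16.

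Tnni1, the slow skeletal muscle isoform of the thin filament inhibitor troponin I, was the trough gene with the largest contrast among genes of at least 2 CPM. It lies on GRCm38 chromosome 1, 135779434 to 135810989, on the plus strand. Its level was 4.64, 4.36, 3.72, 4.29 and 4.05 CPM in the libraries of 2 months and 2.27, 2.08, 2.27, 2.67 and 2.58 at 9 months. It was 2.29, 3.43, 2.54, 3.10 and 2.57 CPM at 15 months and 5.04, 4.95, 5.07, 4.22 and 4.52 at 24 months. The highest middle library (3.43) lay below the lowest end library (3.72), so the groups did not overlap. The middle was 1.73-fold lower (mid-life contrast -0.79, SE 0.08, adjusted p = 2.24e-07), by 0.70 on the early side and 0.89 on the late side on the log2 scale. Tnni1 was a trough gene under each of the 20 fits that left out a library, with the GC gap as a covariate, and with 9 or 15 months alone as the middle.

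Of 19 tested genes of troponins, sarcomeric myosins and cardiac or skeletal actins, 5 were lower in the middle (against 11.1% of all genes tested), none higher, and 1 (Tnni1) was a trough gene, with a list median of -0.03 against -0.01 over all genes tested. Myh3, the embryonic myosin heavy chain, was lower by 0.43, with the early side passing and the late side not (adjusted p = 0.0679). Tnnc1, Myl4 and Tnni3 were the other members lower in the middle (-0.30, -0.23 and -0.37). Tnnc1 did not turn back, with means of 6.28, 4.29, 3.12 and 3.23 CPM at 2, 9, 15 and 24 months (all 25 libraries scaled together). Tnni3 averaged 0.83 CPM in the middle and 1.07 in the ends. It passed on the late side alone and lost that class in 16 of the 20 fits that left out a library.

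Gsn encodes gelsolin, which severs and caps actin filaments and is abundant in oligodendrocytes. It lies on chromosome 2, 35256380 to 35307892, on the plus strand. It stood at 73.7, 80.4, 67.9, 66.7 and 65.8 CPM at 2 months, and at 53.2, 51.5, 54.5, 48.1 and 48.4 at 9 months. It stood at 52.6, 48.2, 50.3, 53.5 and 51.1 CPM at 15 months and at 66.7, 65.3, 61.8, 59.7 and 55.2 at 24 months. The highest middle library (54.5) lay below the lowest end library (55.2), by a narrow gap, and the difference between 9 and 15 months was small (15 minus 9 months -0.0030, adjusted p = 0.986). The contrast was -0.37 (SE 0.04, adjusted p = 1.06e-06). Among the 14 genes of the gelsolin family and actin severing, Gsn was the only trough gene, Capg (a capping protein of macrophages) was lower in the middle (-0.48) with the late side alone passing, and Pfn2 (profilin 2) was higher by 0.07. Over all genes tested 11.1% were lower, 11.9% higher and 2.59% trough genes.

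Pla2g4e, a cytosolic phospholipase A2 with N-acyltransferase activity that makes precursors of endocannabinoid-like lipids, lies on chromosome 2, 120166412 to 120245335, on the minus strand. Its levels were 14.8, 16.6, 15.5, 12.9 and 17.99 CPM at 2 months and 6.83, 8.14, 7.71, 6.55 and 9.04 at 9 months. At 15 months they were 7.45, 11.8, 9.88, 13.1 and 13.2 CPM, and at 24 months 16.9, 14.2, 14.6, 14.0 and 14.5. Here the middle ages were unlike: all 9 month libraries lay below every end library, while 15 months spanned the space between, with replicates 4 and 5 just above the lowest 2 month library (12.9). The contrast was -0.72 (SE 0.09, adjusted p = 1.93e-05), and the rise from 9 to 15 months also passed (0.55, adjusted p = 0.0121). Of 25 enzymes of phospholipid, eicosanoid and endocannabinoid metabolism, 7 were lower and 2 higher in the middle, with a median of -0.02. Over all genes tested 11.1% were lower, 11.9% higher and 3.25% peak genes. A single peak gene in a list of this size is close to that share. The peak gene of that list was Napepld, the phospholipase D that releases anandamide from the products of such N-acyltransferases, at 21.35 to 25.3 CPM in the middle and 16.6 to 21.33 in the ends (contrast 0.22, adjusted p = 0.000222), without overlap by a narrow gap.

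**Figure D2:**
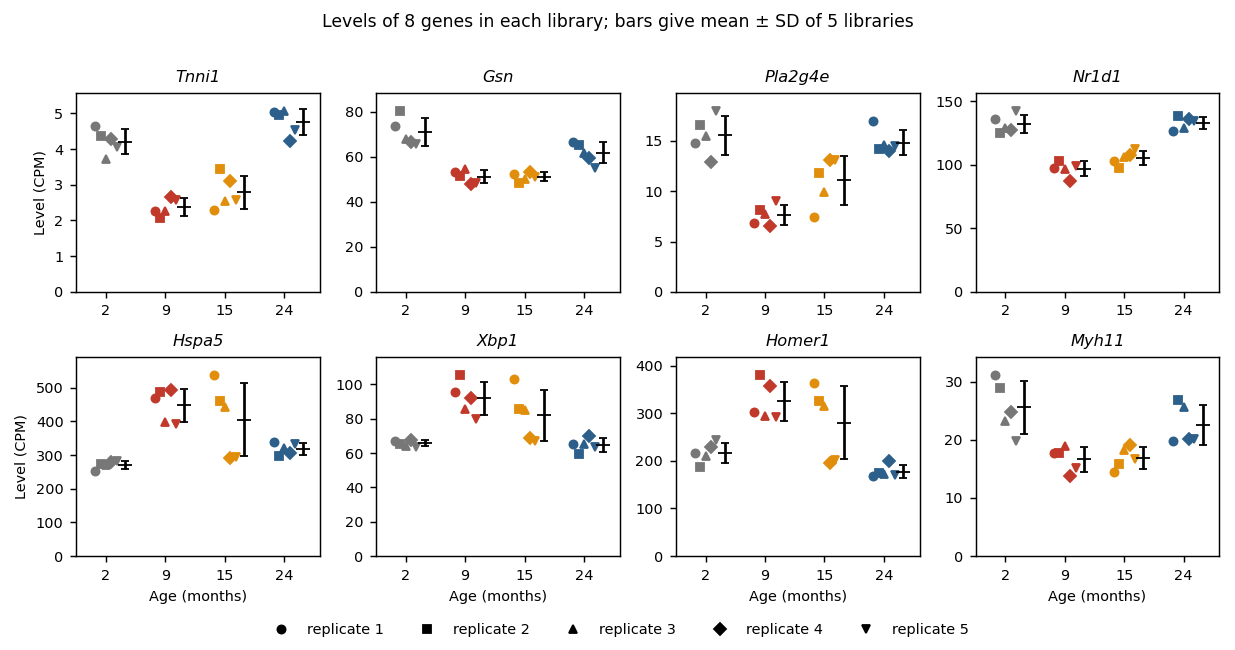
Levels in CPM (y axis, from 0) of 8 genes in each library by age in months, with a marker shape for each replicate and the mean ± SD of 5 libraries in black. Tnni1, Gsn, Nr1d1 and Myh11 lie lower in every library of 9 and 15 months than in any of 2 and 24 months, while Hspa5, Xbp1 and Homer1 are high in 9 month libraries and in replicates 1 to 3 of 15 months and lie near the ends in replicates 4 and 5.

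Clock genes turned in both directions. Nr1d1, the repressor REV-ERBalpha (chromosome 11, 98767932 to 98775333, minus strand), had the smallest p of all 17472 genes. It stood at 136, 125, 129, 127 and 142 CPM at 2 months and at 97.4, 103, 96.97, 87.3 and 98.6 at 9 months. It stood at 103, 97.6, 106, 107 and 113 CPM at 15 months and at 126, 138, 129, 136 and 134 at 24 months. No library of the middle reached any library of the ends, and the contrast was -0.39 (SE 0.03, adjusted p = 4.18e-09), with 24 and 2 months differing by 0.01 (adjusted p = 0.872). Nr1d1 was a trough gene in each of the 20 fits that left out a library, with each covariate (the GC gap, liver transcripts or Ciart), with GC content and length taken out, and in the fit with all 25 libraries.

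Dbp, an activator driven by the clock loop (chromosome 7, 45705088 to 45710203), stood at 23.2 to 34.7 CPM in the middle (median 27.1) and at 33.6 to 49.05 in the ends (median 39.8). Ciart, a repressor of the same loop, stood at 6.66 to 9.27 CPM in the middle and 9.03 to 17.8 in the ends. Their contrasts were -0.55 (adjusted p = 8.97e-07) and -0.66 (adjusted p = 5.72e-05), and in each the highest middle library, replicate 5 of 15 months, lay above 1 end library. Arntl, the activator that REV-ERBalpha represses, went the other way, with 38.7 to 49.8 CPM in the middle and 35.25 to 38.8 in the ends (contrast 0.27, adjusted p = 1.48e-06). Clock (0.16) and Hlf (0.13), an output factor related to Dbp, were the other peak genes of the list, and Hlf lost its class in 6 of the 20 fits that left out a library. Of all genes tested 11.9% were higher, 11.1% lower, 3.25% peak and 2.59% trough genes. Over the 21 clock genes, 8 were higher and 3 lower in the middle, with 3 peak and 3 trough genes and a median of 0.04. With the GC gap as a covariate 1 was higher and 3 lower, with Nr1d1 the remaining trough gene and no peak gene. The promoter of Ciart is shown because it is the trough gene of this list that holds the E-box CACGTG, the site of the CLOCK and BMAL1 pair. It has 3 of them within 116 bases before the gene's start (capitals; RefSeq, GRCm38.p6, chr3:95882246-95882364, minus strand).
Ciart: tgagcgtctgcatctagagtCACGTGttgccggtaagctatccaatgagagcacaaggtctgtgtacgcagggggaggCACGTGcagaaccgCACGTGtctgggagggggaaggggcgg
The E-box was in the promoters (250 bases before to 50 after a start, either strand) of 5 of 18 clock genes with a RefSeq entry. It was in 13.3% of peak, 14.4% of trough and 10.9% of all tested genes with an entry. The D-box TTATGTAA, the site of DBP and HLF, was in 1.64%, 0.556% and 0.813%. The hour at which the animals were killed is not given in the sources used here. With the log2 level of Ciart, itself a trough gene, as a covariate, 78 peak and 64 trough genes were called, 51 and 33 of them among those above; its part in the counts was not tested beyond this.

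Some genes of the vessel wall were trough genes. Of 16 genes of smooth muscle and pericytes, 8 were lower, none higher and 6 were trough genes. Over all genes tested 11.1% were lower and 2.59% were trough genes. The list median was -0.15. The median difference of 24 minus 2 months over the list was -0.15 as well. Myh11, the smooth muscle myosin heavy chain (chromosome 16, 14194535 to 14291372, minus strand), stood at 31.2, 28.9, 23.3, 24.7 and 19.8 CPM at 2 months and at 17.7, 17.7, 18.9, 13.8 and 15.2 at 9 months. At 15 months it stood at 14.4, 15.8, 18.2, 19.1 and 16.8 CPM and at 24 months at 19.8, 26.8, 25.7, 20.1 and 20.2. The groups did not overlap (contrast -0.51, adjusted p = 0.00083), although the 2 month libraries ranged widely and replicates 1 and 2 were the highest there. Their titles give these 2 animals consecutive numbers, far from those of replicates 3 to 5. What that gap in the numbers stands for is not given, and its part in the levels was not tested. Tagln (transgelin, -0.51), Acta2 (smooth muscle actin, -0.43), Myl9 (a myosin regulatory light chain, -0.41), Cspg4 (the NG2 proteoglycan of pericytes and oligodendrocyte precursors, -0.26) and Mylk (myosin light chain kinase, -0.16) were the other trough genes, Mylk losing its class in 14 of the 20 fits that left out a library. In such whole-tissue RNA, fewer cells of a type and less RNA per cell cannot be told apart. The level of the whole list, as a mean log2 value relative to 2 months, was -0.14 to 0.21 at 2 months, -0.36 to -0.17 at 9, -0.33 to -0.20 at 15 and -0.20 to 0.01 at 24 months. At 2 months it was 0.21 and 0.10 in replicates 1 and 2 and -0.14 to -0.03 in replicates 3 to 5. Of 16 genes of brain endothelium, 3 were lower and none higher, with Slc2a1, the glucose transporter of the barrier, a trough gene (-0.32). A single trough gene in a list of this size is close to the share over all genes. With the GC gap as a covariate 2 of the 16 smooth muscle and pericyte genes were lower and 1 (Cspg4) was a trough gene, and with GC content and length taken out 7 and 5.

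Many myelin genes were lower as well, with list medians of -0.07 on the early and -0.20 on the late side. As a mean log2 value relative to 2 months, the list was at -0.06 to 0.08 at 2 months and -0.21 to -0.003 at 9 months. It was at -0.15 to -0.08 at 15 months and at 0.05 to 0.10 at 24 months. Of 24 myelin genes tested, 13 were lower in the middle, 1 higher (Ermn, 0.14) and 5 were trough genes, with a median of -0.16. Over all genes tested 11.1% were lower and 2.59% were trough genes. Mog, a glycoprotein on the outer face of myelin, stood at 79.1, 90.8, 72.9, 76.1 and 82.0 CPM at 2 months and 60.5, 58.3, 58.1, 47.4 and 50.7 at 9 months. It stood at 56.1, 58.4, 51.1, 56.3 and 57.1 CPM at 15 months and 66.3, 64.3, 65.5, 61.5 and 63.4 at 24 months, so that the middle and the ends did not overlap, with 24 months between 2 months and the middle. Its contrast was -0.37 (adjusted p = 8.52e-06), with 0.53 on the early and 0.21 on the late side. Mag, an adhesion protein of the innermost layer of myelin, was at 134 to 165 CPM in the middle and 166 to 204 in the ends (contrast -0.29, adjusted p = 2.96e-05), also without overlap. Opalin (-0.40), Cldn11 (-0.33), a tight junction protein of myelin, and Cnp (-0.23), an enzyme of its cytoplasmic channels, were the other trough genes. Mbp, the myelin basic protein, was lower by 0.17 with only the late side passing. Of 18 genes of oligodendrocyte precursors and premyelinating cells, 6 were lower and none higher, 2 of them trough genes (Lhfpl3, -0.12, and Cspg5, -0.07). Cspg5 lost its class in 9 and Lhfpl3 in 4 of the 20 fits that left out a library. With the GC gap as a covariate 3 of the 24 myelin genes were lower and none was a trough gene, and with GC content and length taken out 10 were lower and 4 were trough genes.

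Others of the 12 largest trough genes share no list. They include Wfikkn2 (-0.60), a secreted binder of myostatin and GDF11, Klhdc9 (-0.58), Mt2 (-0.56), the zinc-binding metallothionein 2, Gimap6 (-0.54), a GTPase of lymphocytes, Usp43 (-0.54), a ubiquitin protease, and Tsku (-0.53), a small secreted proteoglycan. Wfikkn2 stood at 1.69 to 3.06 CPM in the middle and 2.79 to 4.16 in the ends. Mt2 was lower at 15 months (36.5 to 40.2 CPM) than at 9 (37.1 to 60.4), and its reversal is a rise to 62.9 to 86.2 CPM at 24 months more than a fall from 50.1 to 68.7 at 2 months. It was no longer a trough gene in 8 of the 20 fits that left out a library. The genes whose log2 levels followed Pla2g4e most closely over the 20 libraries were Parn, a poly(A)-specific ribonuclease (Pearson r = 0.95), Usp2, a ubiquitin protease under clock control (0.92), Mir9-3hg, the host transcript of a miR-9 gene (0.92), the zinc finger gene Zfp46 (0.90) and Adamts16, a metalloprotease (0.90). All 5 were trough genes themselves, although Adamts16 lost its class in 6 of the 20 fits that left out a library. These correlations are descriptions, since the libraries share their ages.

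ER chaperones held more peak genes than any other of the 44 lists. Of 23 tested, 16 were higher in the middle, 3 lower and 10 were peak genes, and the list median was 0.16 against -0.01 over all genes. Of all genes tested 11.9% were higher, 11.1% lower and 3.25% peak genes. Hspa5 encodes BiP, the Hsp70 of the ER that also holds the stress sensors inactive (chromosome 2, 34771970 to 34777547, plus strand). It stood at 251, 274, 269, 279.8 and 281 CPM at 2 months and 469, 487, 398, 494 and 391 at 9 months. It stood at 538, 460.2, 442, 292 and 294 CPM at 15 months and 338, 296, 321, 306 and 332 at 24 months. Every 9 month library lay above every end library, and so did replicates 1 to 3 of 15 months, while replicates 4 and 5 lay between the ranges of 2 and 24 months. The middle was 1.45-fold higher (contrast 0.53, SE 0.10, adjusted p = 0.001), by 0.65 on the early and 0.42 on the late side. The call ended with the GC gap as a covariate (0.28, adjusted p = 0.3001) and held with GC content and length taken out (0.51, adjusted p = 0.00138).

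Its partners moved with it. Sdf2l1 (0.62), a partner of the BiP complex, Pdia4 (0.44) and Pdia6 (0.32), which form disulfide bonds, Creld2 (0.44), Manf (0.40), a secreted ER stress factor, Calr (0.28), the lectin chaperone calreticulin, Dnajc3 (0.26), a co-chaperone of BiP, Erp44 (0.16) and Canx (0.10), calnexin, were peak genes. Erp29 (-0.14), an ER protein of disulfide isomerase fold, was the trough gene of the list. The 5 genes most like Hspa5 over the 20 libraries were Pdia4 (Pearson r = 0.98), Pdia6 (0.96), Manf, Pdia3 and Sdf2l1 (0.94 each), all members of this list. Xbp1, the transcription factor that drives many of them, stood at 66.9 to 105.5 CPM in the middle (median 85.7) and 59.4 to 70.1 in the ends (median 65.25; contrast 0.41, adjusted p = 0.000558). Of the 15 stress sensors and their factors, 3 were higher and 3 lower, and Creb3 (-0.12) was the trough gene, losing its class in 12 of the 20 fits that left out a library. ER-associated degradation (3 higher and 1 lower of 16), the translocon and N-glycosylation (5 and 3 of 22) and transport to the Golgi (5 and 3 of 23) had calls in both directions, with medians from 0.01 to 0.03, where 11.9% of all genes tested were higher and 11.1% lower. With the GC gap as a covariate, none of the 23 ER chaperones was called, and with GC content and length taken out 16 were higher, 1 lower and 9 were peak genes.

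The promoters of this group are shown because they hold a site in common, the ER stress element, to which ATF6 binds with the factor NF-Y. It was searched on both strands as CCAAT, then any 9 bases, then CCACG, and the capitals mark those fixed bases (their reverse complements where the element lies on the other strand). All come from RefSeq on GRCm38.p6 and are written in the direction of the gene. The starts are those of RefSeq. For Hspa5 the RefSeq start and the marked element lie inside the gene span given above, which is that of another annotation (GENCODE). Hspa5 is given for the 250 bases before its start (chr2:34771840-34772089, plus strand), and the others for the element with up to 20 bases on either side: Creld2 (chr15:88819500-88819559, plus), Pdia6 (chr12:17266471-17266530, plus), Dnajc3 (chr14:118937807-118937866, plus), Calr (chr8:84847054-84847113, minus) and Canx (chr11:50325779-50325838, minus).
Hspa5: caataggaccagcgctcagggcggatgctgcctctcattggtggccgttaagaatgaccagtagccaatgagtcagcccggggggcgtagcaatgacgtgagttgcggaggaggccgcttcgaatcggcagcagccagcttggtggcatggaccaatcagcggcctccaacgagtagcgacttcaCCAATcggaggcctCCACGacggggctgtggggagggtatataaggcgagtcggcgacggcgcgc
Creld2: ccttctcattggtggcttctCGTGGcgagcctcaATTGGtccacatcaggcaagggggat
Pdia6: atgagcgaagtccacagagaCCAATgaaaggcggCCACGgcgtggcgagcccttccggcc
Dnajc3: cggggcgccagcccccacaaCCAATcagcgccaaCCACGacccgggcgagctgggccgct
Calr: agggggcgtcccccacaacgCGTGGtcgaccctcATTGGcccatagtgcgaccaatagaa
Canx: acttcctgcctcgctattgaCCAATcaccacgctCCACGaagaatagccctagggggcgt
The element was in 6 of the 428 peak genes with a promoter in the table (1.4%), and these 6 are the genes just shown. It was in 0 of 360 trough genes, in 20 of 12540 tested genes (0.159%) and in 37 of all 27025 genes of the table (0.137%). Of the 18 ER chaperones with an entry 7 held it, the last being Hsp90b1, the ER Hsp90 GRP94. Its parts alone are common: CCAAT was in 41.9% and CCACG in 49.7% of tested genes. A match is a description of letters and says nothing of binding in these brains.

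Heat shock chaperones of the cytosol and mitochondria formed the other group. Of 22 tested, 14 were higher in the middle, none lower and 8 were peak genes, with a median of 0.12. Over all genes tested 11.9% were higher and 3.25% were peak genes. Hspa1b, a stress-inducible Hsp70 (chromosome 17, 34956436 to 34959238, minus strand), had the largest contrast of any peak gene of at least 2 CPM. It stood at 2.46, 1.42, 2.38, 1.39 and 2.33 CPM at 2 months and 6.29, 7.42, 4.32, 6.31 and 4.01 at 9 months. At 15 months it stood at 5.06, 4.79, 3.83, 2.44 and 2.90 CPM and at 24 months at 2.44, 2.39, 2.06, 2.63 and 3.83. The 9 month libraries lay above all others but those of 15 months, and the contrast was 0.99 (SE 0.17, adjusted p = 0.000392). Its near-identical neighbour Hspa1a (0.68) cannot be separated from it with certainty, since shared reads may be split between them. Chordc1 (0.39), an Hsp90 co-chaperone, Hsph1 (0.24), the Hsp110 exchange factor, Hspa8 (0.23), the constitutive Hsc70, Stip1 (0.17), which links Hsp70 to Hsp90, Dnaja1 (0.17) and Hspa4l (0.17) were the other peak genes. Hsph1 lost its class in 13, Hspa1a in 6, Stip1 in 4, Hspa4l in 3 and Dnaja1 in 1 of the 20 fits that left out a library. The heat shock element, searched as GAA, TTC and GAA each 2 bases apart, was in 4 of 16 of these genes with a promoter entry (Chordc1, Hsph1, Hspd1 and Hspe1) and in 0.574% of tested genes. None of the 22 passed with the GC gap as a covariate, and with GC content and length taken out 14 were higher and 8 were peak genes.

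Homer1, a scaffold of excitatory synapses whose short form is made on neuronal activity, was a peak gene of similar size (chromosome 13, 93299635 to 93405129, plus strand). It stood at 216, 187, 211, 229 and 243 CPM at 2 months and 302, 380.2, 294, 358 and 292 at 9 months. It stood at 364, 326, 315, 195 and 202 CPM at 15 months and 167, 175, 173, 200.3 and 171 at 24 months, a contrast of 0.62 (adjusted p = 0.000661), and lost its class without replicate 2 or replicate 3 of 2 months. As with Hspa5, all 9 month libraries and 3 of 15 months lay above all end libraries, and 2 lay among them. Of 20 immediate early genes, which neurons switch on within minutes of activity, Homer1 and Egr3 (0.45) were the peak genes and no other passed. In a list of 20, 2 higher genes are near the 11.9% of all genes tested that were higher. Of all genes tested 3.25% were peak genes. The list level varied within ages more than between them, from -0.77 and -0.67 in replicates 1 and 2 of 2 months to 0.44 to 0.53 in replicates 3 to 5 of the same age. The animal numbers of 2 months fall into the same 2 sets. Egr3 lost its class in 14 of the 20 fits that left out a library.

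Other large peak genes stood outside these groups. Rpe65 (0.78), the retinoid isomerase of the eye's pigment epithelium, stood at 1.69 to 3.32 CPM in the middle and 0.725 to 2.99 in the ends, and lost its class in 8 of the 20 fits that left out a library. Slc5a3 (0.44), the myo-inositol transporter, stood at 58.2 to 85.15 CPM in the middle and 43.65 to 58.3 in the ends. Map3k19 (0.43), a kinase that lost its class in 3 of those fits, and mt-Tm (0.43), the mitochondrial methionine tRNA, completed the 12. In none of the 12 largest peak genes were the middle and end libraries without overlap. Among the 68 genes higher in every middle library than in any end library, the largest contrasts outside predicted gene models belonged to Lrrk2 (0.38), a kinase and GTPase linked to Parkinson disease, Vps13a (0.35), a lipid transfer protein, and Spred1 (0.32), an inhibitor of Ras signalling. These 3 were chosen after their values were seen. Lrrk2 averaged 85.5 ± 4.54, 111 ± 8.67, 113 ± 15.0 and 87.25 ± 4.74 CPM (SD, n = 5) at 2, 9, 15 and 24 months.

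**Figure D3:**
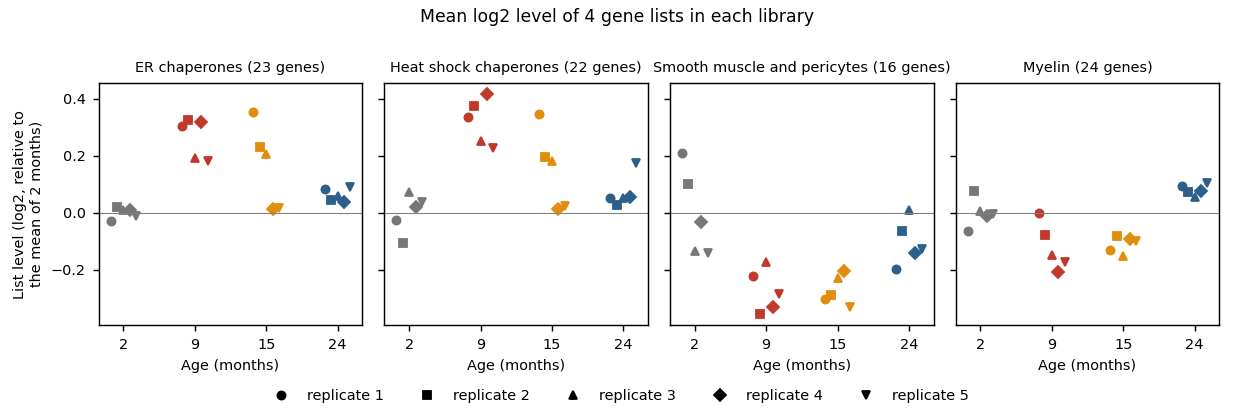
Mean log2 level of 4 gene lists in each library (y axis, relative to the mean of the 2 month libraries) by age in months, with a marker shape for each replicate. Both chaperone lists are at 0.18 or more in all 9 month libraries and in replicates 1 to 3 of 15 months and near 0 in replicates 4 and 5, while the smooth muscle and myelin lists have all 15 month libraries below 0.

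The 2 middle ages were not alike for chaperones. The ER chaperone list stood at 0.35, 0.23 and 0.21 in replicates 1 to 3 of 15 months and at 0.01 in both replicates 4 and 5, against 0.18 to 0.33 at 9 months, -0.03 to 0.02 at 2 and 0.04 to 0.09 at 24 months. The heat shock list stood at 0.34, 0.19 and 0.18 in replicates 1 to 3 and 0.01 and 0.02 in replicates 4 and 5. In the same 2 libraries Pla2g4e (13.1 and 13.2 CPM) and Mir9-3hg (29.0 and 29.1) lay among the ends. Tnni1, Gsn, Myh11 and Mog lay with the rest of the middle there. That holds by definition for genes whose middle and end libraries do not overlap, so it says nothing more about these 2 libraries. Replicates 4 and 5 had totals of 24.05 M and 21.4 M counts and GC gaps of -0.09 and -0.10, against 18.6 M to 25.9 M and -0.25 to -0.10 in the other 3. Mitochondrial ribosomal RNA took 0.713% and 0.701% of their counts, against 0.774% to 0.834% in the other 3, and their immediate early gene list stood at -0.73 and -0.54, against -0.16 to 0.13. The part of these values in the chaperone levels was not tested.

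The test of 15 minus 9 months called 10.9% of all genes (4.45% higher and 6.45% lower at 15 months) and 15.8% of peak genes, 82 of those 90 lower at 15 months, and 17.9% of trough genes, 53 of 81 higher at 15 months. It called 9 of the 22 heat shock chaperones, all lower at 15 months, and 2 of the 23 ER chaperones. With 9 months alone as the middle, 14 heat shock chaperones and 11 ER chaperones were peak genes, and with 15 months alone 1 of each list. With 9 months alone 741 peak and 593 trough genes were called in all, and with 15 months alone 409 and 454. The ends differed in 22.8% of all genes (11% higher and 11.7% lower at 24 months), in 10.4% of peak genes and in 7.74% of trough genes. These shares share libraries with the choice of the classes and are given as descriptions.

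Reversal was also counted from pairs of comparisons with no library in common. From 2 to 9 months 1383 genes rose (7.92%) and 1216 fell (6.96%), 14.9% in all, and from 15 to 24 months 2076 rose (11.9%) and 2138 fell (12.2%), 24.1% in all. Among them, 372 genes rose and then fell (2.13% of genes, 26.9% of the early rises and 17.4% of the late falls). A further 224 fell and then rose (1.28%, 18.4% of the early falls and 10.8% of the late rises), while 159 rose in both and 124 fell in both. Across genes, which are not independent, the early and late log2 changes had a Pearson r of -0.16. The other such pair, 15 minus 2 months (13.1% called, 6.10% higher and 6.95% lower) and 24 minus 9 months (30.8%, 15.4% and 15.3%), gave 293 and 214 reversals against 212 and 190 that went on in the same direction, and r = 0.27 (Spearman rho 0.05). The sign across all genes thus depended on which middle age was put with which end. With the GC gap as a covariate no gene passed from 15 to 24 months, and r of the first pair was 0.14. With GC content and length taken out r was -0.16 and 0.29.

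**Figure D4:**
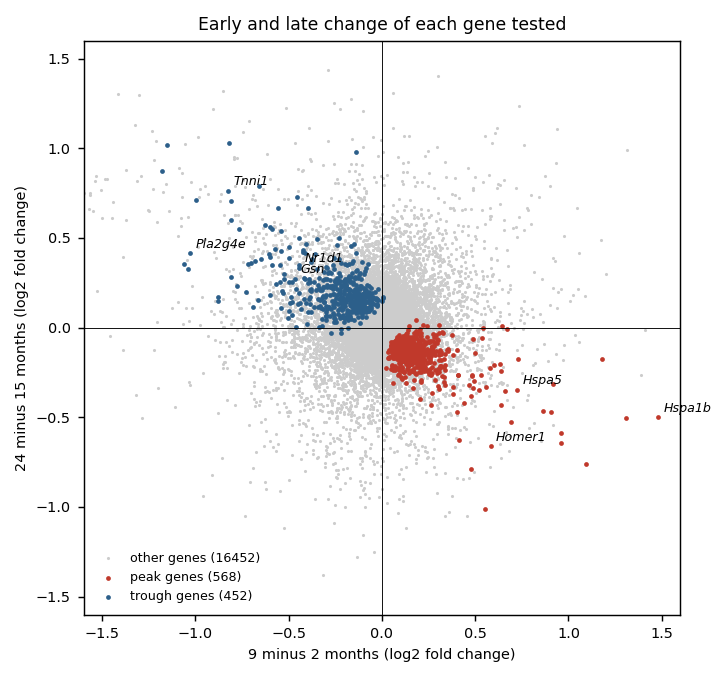
Log2 fold change from 2 to 9 months (x axis) against that from 15 to 24 months (y axis) for each gene tested, with peak genes in red, trough genes in blue and all others in grey; 31 genes lie outside the axes. The classes were chosen on the same libraries, so their place in the lower right and upper left is by construction, and the spread of each class shows the size of both changes.

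Steps, which passed in the direction of the contrast on 1 side only, made up the larger part of the contrast genes. How many of them changed once and how many turned back weakly was not tested. Among those that passed on the early side alone, Inhba (0.42), an activin subunit, Abca8a (0.39), a lipid transporter, Mmp11 (0.38), a matrix protease, and Mlph (0.37), a melanosome adaptor, were the largest that were higher in the middle. Abca8a rose from 8.70, 10.1, 11.1, 9.86 and 11.3 CPM at 2 months to 20.4, 15.8, 18.8, 21.7 and 19.1 at 9 months and stood at 24.3 to 28.7 at 24 months, so it did not turn back. Apold1 (-0.55), an early response gene of endothelium that lost its class in 10 of those fits, Igfbp7 (-0.44), a secreted growth factor binding protein, Myh3 (-0.43) and Ly75 (-0.41), an endocytic receptor, were the largest that were lower. Igfbp7 was at 31.9 CPM in 1 library (replicate 1 of 2 months) and at 12.1 to 19.45 in the other 19, and it lost its class without that library and in 10 of the other 19 fits that left out a library.

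Among those that passed on the late side alone, Cybb (-0.72), the phagocyte oxidase subunit, Angptl4 (-0.56), an inhibitor of lipoprotein lipase, Serpina3n (-0.53), a protease inhibitor of reactive astrocytes, and Capg (-0.48) were lower in the middle. Cybb lost its class in 15 of the 20 fits that left out a library. Serpina3n stood at 13.9 to 20.02 CPM in all libraries of 2, 9 and 15 months and at 62.0, 40.4, 31.4, 33.5 and 35.2 at 24 months. Dsg1a (0.42), a desmosomal cadherin, Lct (0.40), the intestinal lactase, Krt14 (0.38), a keratin, and Dio2 (0.37), which activates thyroid hormone, were higher in the middle. Dsg1a and Krt14 lost their class in 10 and 12 of the 20 fits that left out a library. Lct stood at 5.07 to 7.41 CPM up to 15 months and at 4.53, 4.09, 3.80, 3.83 and 3.90 at 24 months. Lists with several genes lower in the middle but at most 1 trough gene included activated microglia (11 of 19 lower, 1 trough gene, Cd9), immature neurons (7 of 18 lower, no trough gene) and cell division (5 of 13 lower, no trough gene). Of all genes tested 11.1% were lower and 2.59% were trough genes. The microglia list was at 0.58 to 0.93 at 24 months and -0.10 to 0.22 before, while the immature neuron list was at -0.07 to 0.06 at 2 months and -0.46 to -0.12 after.

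**Figure D5:**
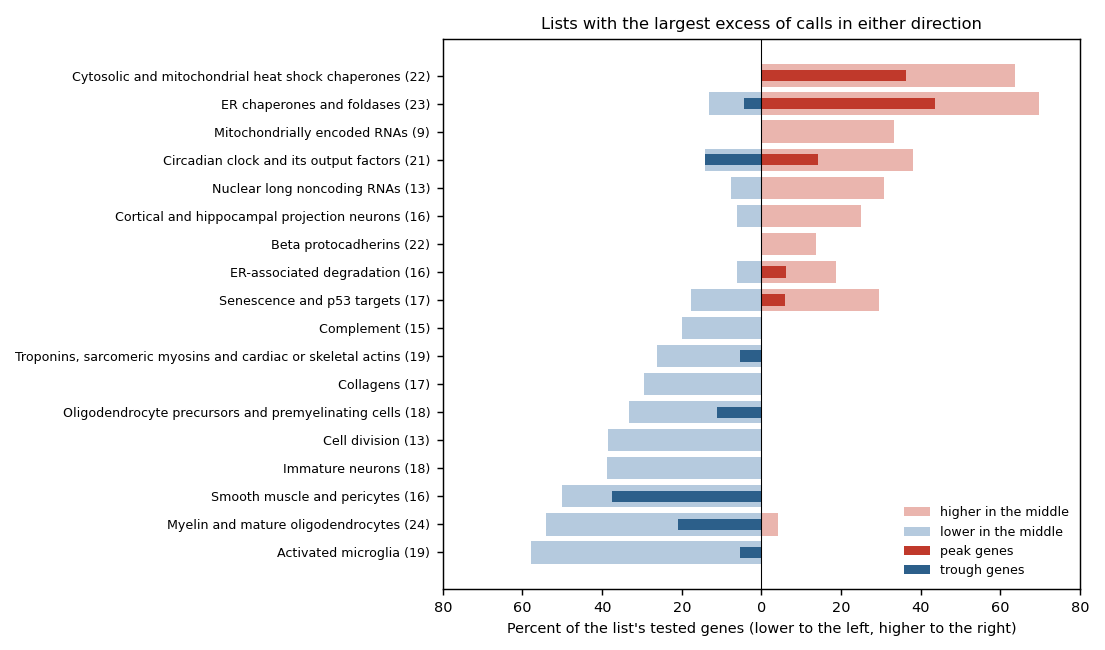
Percent of each list's tested genes (number in brackets) that were higher (right, pale red) or lower (left, pale blue) in the middle ages, with peak genes in dark red and trough genes in dark blue. Shown are 18 lists, in equal number from the top and the bottom of the order by share higher minus share lower. Of all genes tested 11.9% were higher and 11.1% lower, and chaperones stand at the top and activated microglia, myelin and smooth muscle at the bottom.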

How the data were processed

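The deposited table of the series holds raw counts per gene, made by the authors; per the submitters' processing notes, CASAVA 1.7, STAR 2.4.1d and featureCounts 1.4.6-p4 were used, with the build GRCm38. The counting's strand setting is not given in the sources used here, so overlapping and antisense genes cannot be told apart. A deposited table of RPKM values was not used.

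The 20 libraries of 2, 9, 15 and 24 months (5 each) were fitted in R 4.3.3 with edgeR 4.0.16 (quasi-likelihood, robust, TMM scaling, filter on low counts by age group). Age was the only term, p-values were adjusted by Benjamini-Hochberg over all 17472 genes tested of 47729, and the threshold was 0.05. Adjusted p-values come from this test unless the sentence names another fit, which then used the same tool and adjustment. Levels are CPM after TMM scaling, those of Alb and Ttr per total counts. Gene positions, GC content and lengths come from GENCODE M21 on GRCm38, which held 47310 of the genes.

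Named genes were the 12 largest peak and trough genes of at least 2 CPM without predicted models or pseudogenes, the 4 largest steps per side and direction, up to 6 members per list by p and every peak or trough member, the 4 marker genes Tnni1, Gsn, Pla2g4e and Hspa5, and the 5 genes most like Hspa5 and Pla2g4e; 1 gene so picked is not reported here. The members, the 44 gene lists and these rules were chosen with earlier results of these data known. Each library comes from its own numbered animal. Alternatives were other scalings, filters, covariates, middle ages and tools (limma 3.58.1, DESeq2 1.42.0) and each library left out in turn. Offsets for GC content and length, the Ciart covariate and leaving out the 2 libraries of strongest GC lean were added after seeing the data.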

Additional observations from a re-analysis of the deposited data

Results flagged for a closer look

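In 12 of 112 groups of 5 libraries looked at, 1 library stood apart from the other 4 (a gap of more than 0.71 of the range); chance flags about 1 in 20 groups. Gimap6 did so at 3 ages, with 2.90 CPM in replicate 1 of 2 months, 3.97 in replicate 1 of 15 months and 5.90 in replicate 1 of 24 months. Ciart stood at 9.27 CPM in replicate 5 of 15 months, Pla2g4e at 16.95 in replicate 1 of 24 months and Homer1 at 200.3 in replicate 4 of 24 months. At 9 months Hspa1a stood apart at 4.45 CPM in replicate 2 and Tsku at 2.79 in replicate 3. Among the library checks, replicate 3 of 2 months had the highest total, 31.3 M counts (M, 1000000), and an Alb level of 127 CPM. Replicate 1 of 15 months had the lowest GC gap, -0.25, and replicate 1 of 9 months a Ttr level of 17.5 CPM.

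Of 24 genes looked at (the largest peak and trough genes, with the markers), 4 differed between the middle ages by the edgeR test of 15 minus 9 months (adjusted p under 0.05). Pla2g4e (0.55) and Dbp (0.24) were higher at 15 months, nearer to the ends. Mt2 (-0.46) was lower at 15 months, and Creld2 (-0.34) was lower there too, which for this peak gene is nearer to the ends.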

How the results depend on the processing

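With the GC gap as a covariate, 93 genes were higher and 109 lower in the middle, with 31 peak and 33 trough genes, 759 higher and 765 lower on the early side, and 151 and 184 on the late side. With all 25 libraries in the fit these counts were 228, 344, 39, 57, 187, 251, 433 and 881, and with Ciart as a covariate 452, 309, 78, 64, 146, 118, 1583 and 1243. Total counts alone as the scale gave 724 trough genes, with 1432 genes higher and 2772 lower in the middle. The liver covariate gave 1821 lower on the late side, the GC and length offsets 1296 lower in the middle, and leaving out the 2 libraries of strongest GC lean 273 trough genes. The cause was not tested. Leaving out each library gave 1811 to 2184 higher and 1504 to 1945 lower in the middle, 428 to 656 peak and 298 to 475 trough genes (298 without replicate 3 of 2 months), 978 to 1390 higher and 923 to 1262 lower on the early side, and 2343 to 2878 and 2275 to 2851 on the late side. DESeq2 and limma-voom stayed within 1.5 times of these counts. Of the named genes' values, 15 outside the left-out libraries changed sign, all to within 0.05 of 0: Mbtps2 (-0.0109), Dad1 (0.0025), Bbc3 (0.048) and Dsg1a (-0.044) with the GC gap, Akt1 (0.0099), Eno2 (0.0035), Tubb3 (0.0039) and Rora (-0.013) with the offsets, Irf7 (0.048), Lss (0.049), Cux1 (0.0058), Tubb3 (0.044) and Sgk1 (0.0073) with Ciart, and Tubb3 (0.012) and Dad1 (0.0031) with 9 months alone. No paired analysis was possible because the labels give each library its own animal number and no number that groups share.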

Other observations

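Peak and trough genes also lay in further lists. Over all genes tested 3.25% were peak and 2.59% trough genes, and 11.9% were higher and 11.1% lower in the middle. A single such gene in a list of this size is close to those shares. Among 40 cytosolic ribosomal proteins 9 were lower and 1 higher in the middle, and Rplp1 (-0.26) and Rpl6 (-0.24) were trough genes. Of 22 genes of the translocon and N-glycosylation, Spcs3 (0.20), a signal peptidase subunit, and the oligosaccharyltransferases Stt3b (0.16) and Stt3a (0.13) were peak genes. Sesn2 (-0.17), a stress-induced inhibitor of mTORC1, and Slc7a5 (-0.24), an amino acid transporter, were trough genes of the 18 ATF4 targets, of which 4 were lower and 1 higher. Nr3c1 (0.15), the glucocorticoid receptor, was a peak gene among 16 genes of that response (3 higher, 3 lower). That list also held 1 trough gene, and its median was -0.17 against -0.01 over all genes tested. Slc1a2 (0.17), a glutamate transporter, was a peak gene among 15 genes of astrocytes (1 higher, none lower), and Pde10a (0.20) among 14 of striatal neurons (2 higher, 2 lower). Sesn2, Stt3a, Nr3c1, Slc1a2 and Pde10a did not keep their class with the GC and length correction, and of the genes of this paragraph only Rplp1 and Rpl6 kept it with the GC gap as a covariate. Sesn2 lost its class in 7, Pde10a in 6, Nr3c1 in 3 and Rpl6 in 1 of the 20 fits that left out a library.

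At 30 months, replicates 2 to 5 had stood apart from replicate 1 in earlier results of these data. Their values are therefore given beside those of replicate 1, with all 25 libraries scaled together. Tnni1 was at 4.36 CPM in replicate 1 and 4.496 to 6.46 in the others, Gsn at 66.1 and 77.05 to 96.7, and Nr1d1 at 124.5 and 134 to 169.7. Pla2g4e was at 15.0 CPM in replicate 1 and 11.7 to 16.9 in the others. Hspa5 was at 272 CPM and 196 to 285.5, Homer1 at 165 and 96.75 to 151, and Xbp1 at 70.3 and 73.3 to 100.5. In these 7 genes replicate 1 lay nearer to the ends than to the middle, which does not hold for every peak or trough gene. Replicate 1 was at 80.05 CPM in Rplp1, where the means of 9 and 15 months were 78.1 and 86.0 and those of 2 and 24 months 92.3 and 104.7. Gimap6 (2.31 CPM), Tsku (1.93), Wfikkn2 (2.61) and Mt2 (39.2) also lay nearer to the middle there or below it, and Arntl (42.0) lay nearer to 15 months than to the ends.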
